A study of Mus musculus with 16 samples.

Results

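The 39 genes described here cover the path of glucose from its entry into the cell to the export of lactate. They include kinases that hold pyruvate back from oxidation in the mitochondrion, and genes of the oxygen-sensing pathway that controls many of them. They were chosen by name and by function, and all 39 of the 22911 genes named on the array had a probe. All 39 also passed the filter on dim probes, as did 15394 genes in all, and every probe used for a member lay well above background on all 16 arrays. The RNA came from primary fibroblasts, freed by enzymatic digestion from the lungs of female-labelled mice 8 weeks old. Each RNA sample was labelled with Cy3 and read on its own Agilent array. The mice either lacked meflin, the product of Islr, which sits in the membrane of fibroblasts and mesenchymal stromal cells, or were wild type C57BL/6J. The 4 groups, of 4 arrays each, were knockout cells with recombinant TGF-β1 at 5 ng/ml for 48 h, knockout cells with vehicle, wild type cells with the same TGF-β1 and wild type cells with vehicle. The design text speaks of independent experiments but does not tie them to animals, so p-values measure the spread between these arrays.

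In glycolysis, glucose is phosphorylated, split into triose phosphates and oxidised to pyruvate, and lactate dehydrogenase turns pyruvate into lactate, which leaves the cell by monocarboxylate transporters. Most steps can be run by several enzyme forms from separate genes, which differ in tissue and in regulation. Under low oxygen the prolyl hydroxylases encoded by the Egln genes slow down, the HIF-1α protein is spared from degradation, and HIF dimers bind DNA at a short core sequence and raise many glycolytic genes. TGF-β1 turns fibroblasts into matrix-producing myofibroblasts, a state in which raised glycolysis has been described. HIF-1α is controlled mainly as a protein, which an RNA array does not see.

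The core letters of the hypoxia response element were searched, on both strands, in the 250 bases before each gene start in RefSeq's promoter table of the build GRCm38.p6, where 37 of the 39 members matched. The core was spelled ACGTG or GCGTG. Of the 37 members, 33 held either form (89.2%), against 41.5% of all 27025 genes in the table. A gene counted if any of its promoters matched. The 27025 genes were not limited to those that passed the filter on dim probes, whereas all members passed it. The members were also chosen by function, in part for their response to low oxygen, so a higher share among them is no independent support. Counted by promoter, 43 of 53 member promoters held either form (81.1%), against 38.6% of all 32851. ACGTG stood in 21 members (56.8%, against 18.5% of all genes) and GCGTG in 24 (64.9%, against 30.9%). ACGTG overlaps the E-box CACGTG, which 8 members (21.6%) and 6.86% of all genes held. The stretches of members were also richer in the dinucleotide CG, which both spellings contain, with a median of 13 CG pairs and 60.4% G and C over 53 promoters, against 6 pairs and 52.4% over all 32851 promoters; its part in the shares was not tested. A match is a description of letters and not a site in use. Below stand the 4 members with the largest difference between the TGF-β1 responses of the genotypes, in either direction, that held a core, since their promoters are the ones to set beside the values. Capitals mark ACGTG and GCGTG or, for matches on the opposite strand, their reverse complement.
Slc16a3, chr11:120948817-120949066, plus strand: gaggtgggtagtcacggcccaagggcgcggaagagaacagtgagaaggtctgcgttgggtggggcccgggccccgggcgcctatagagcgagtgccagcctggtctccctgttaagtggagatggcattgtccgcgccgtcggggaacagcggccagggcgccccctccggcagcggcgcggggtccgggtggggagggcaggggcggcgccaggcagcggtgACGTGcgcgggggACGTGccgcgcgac
Pfkp, chr13:6648772-6649021, minus strand: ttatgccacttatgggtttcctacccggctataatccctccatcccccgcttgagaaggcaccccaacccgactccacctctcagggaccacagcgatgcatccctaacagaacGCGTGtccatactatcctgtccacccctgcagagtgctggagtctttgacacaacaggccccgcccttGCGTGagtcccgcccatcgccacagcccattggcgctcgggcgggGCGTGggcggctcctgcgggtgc
Hk2, chr6:82774455-82774704, minus strand: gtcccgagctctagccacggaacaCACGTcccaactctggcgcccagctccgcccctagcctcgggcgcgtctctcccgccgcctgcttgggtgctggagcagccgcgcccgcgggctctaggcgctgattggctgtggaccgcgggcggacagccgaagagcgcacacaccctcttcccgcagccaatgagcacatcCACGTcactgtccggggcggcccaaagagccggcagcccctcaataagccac
Ldhb, chr6:142507958-142508207, minus strand: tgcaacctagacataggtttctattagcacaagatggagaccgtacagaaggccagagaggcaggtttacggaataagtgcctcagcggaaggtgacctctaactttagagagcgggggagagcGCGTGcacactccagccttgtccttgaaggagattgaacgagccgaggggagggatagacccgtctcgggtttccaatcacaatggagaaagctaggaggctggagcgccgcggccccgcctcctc
Slc16a3 held ACGTG 27 and 14 bases before its start, Pfkp held GCGTG at 136, 68 and 23 bases, and Hk2 held ACGTG on the opposite strand at 226 and 52 bases. Ldhb, whose response ran the other way, held a single GCGTG at 126 bases. By the direction of the difference between responses, a core stood in 23 of 24 members with a promoter whose response was more positive in knockout, in 6 of 7 whose response was more negative, and in 4 of 6 that did not pass the test. Both directions thus held the letters.

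Values are log2 spot intensities after each array was shifted to a common 75th percentile, and differences are log2 differences ± standard error from limma's moderated fit, with p-values adjusted by Benjamini-Hochberg over 15394 genes within a comparison. A gene rose or fell where its adjusted p was under 0.05. Before scaling, the 75th percentile of intensity was 382 to 446 on arrays of knockout cells with TGF-β1, 470 to 519 in knockout cells with vehicle, 429 to 452 in wild type cells with TGF-β1 and 486 to 526 in wild type cells with vehicle, and 0 probes were saturated on any array. Islr checked the labels. It averaged 1.76 ± 0.074 in knockout cells with TGF-β1 and 1.45 ± 0.16 in knockout cells with vehicle (SD, n = 4 each), not well above background on any of the 8 arrays, against 8.34 ± 0.081 and 10.82 ± 0.062 in wild type cells with TGF-β1 and with vehicle. It was at least 19.7-fold lower in knockout with TGF-β1 and at least 138-fold lower with vehicle (limma, adjusted p = 6.35e-18 and 1.60e-19), although its 1 probe may lie outside the deleted part. Of 10 fibroblast markers, 5 rose and 5 fell with TGF-β1 in knockout, and 6 rose and 4 fell in wild type. In knockout, Pdgfra averaged 13.86 with vehicle and 11.65 with TGF-β1, and Thy1 averaged 10.87 and 12.65. The summed log2 level of the 10, at 19.03 to 19.3, hides this split. All 10 (Col1a1, Col1a2, Dcn, Pdgfra, Thy1 and others) were well above background on 16 arrays. So were 10 of 10 macrophage and leukocyte markers, whose summed log2 level was 15.84 to 15.97 in knockout cells with TGF-β1, 16.95 to 16.98 in knockout cells with vehicle, 16.33 to 16.42 in wild type cells with TGF-β1 and 17.2 to 17.41 in wild type cells with vehicle. The 8 endothelial markers summed to 10.4 to 10.6 in knockout cells with TGF-β1, 12.1 in knockout cells with vehicle, 11.1 to 11.2 in wild type cells with TGF-β1 and 12.2 to 12.3 in wild type cells with vehicle. Of 8 epithelial markers 6 passed the filter, of which 3 rose and 3 fell in each genotype. Sftpc averaged 8.14 in knockout and 8.57 in wild type cells with vehicle, and 1.87 and 3.77 with TGF-β1. Sftpb and Scgb1a1 were well above background on every vehicle array and on no TGF-β1 array. Cdh1, Krt8 and Krt18 averaged higher with TGF-β1 in each genotype. Nkx2-1 was not well above background on any array. Of 4 mesothelial markers 3 fell and 0 rose in knockout, and 3 fell and 1 rose in wild type. The riser, Wt1, averaged 12.35 with vehicle and 12.76 with TGF-β1. Of 5 pericyte and smooth muscle markers 4 rose and 1 fell in knockout, and 2 rose and 1 fell in wild type. The marker counts are to be read against all genes tested, of which 46.6% rose and 35.9% fell in knockout. In wild type the shares were 41.3% and 27.3%. These markers moved with TGF-β1 and with genotype; their part in the results below was not tested, and fewer cells of a type and less RNA per cell cannot be told apart.

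TGF-β1 raised most of the pathway in both genotypes. In knockout cells 27 of the 39 members rose and 11 fell, where 46.6% of all genes tested rose and 35.9% fell. In wild type cells 28 rose and 7 fell, against 41.3% and 27.3% of all genes. The median member difference was 1.07 in knockout and 0.65 in wild type, against 0.10 and 0.077 over all genes. At least 2-fold rises were met by 21 members in knockout and 13 in wild type, shares of all genes being 9.58% and 3.26%, and at least 2-fold falls by 6 and 3, against 13.6% and 6.45%. All 4 treated arrays lay above all 4 vehicle arrays for 27 members in knockout and 27 in wild type, where 43.9% and 38% of all genes did so. They lay below for 10 and 6 members, against 33.3% and 25%.

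The same members tended to move in both genotypes, and further in knockout. Of the 39, 27 rose in both (35% of all genes did), 6 fell in both (23.5%), and 1, Ldhb, moved opposite ways (3.96%). Of the 33 members called the same way in both, 26 (78.8%) also had an interaction of that sign, against 59.6% of all genes called the same way. The responses in knockout and wild type, which share no arrays, had a Pearson r of 0.92 and a Spearman rho of 0.90 across the 39 members. These describe genes that are not independent, and the correlation was not taken over all genes. Tested as the interaction, that is the TGF-β1 response in knockout minus that in wild type, 25 members were more positive in knockout and 7 more negative, where 31.9% and 26.5% of all genes were. At least 2-fold interactions were met by 3 members upward and 2 downward, against 3.25% and 6.72% of all genes. The median interaction was 0.36 against 0.048 over all genes. Quantile normalization, another scaling, gave 19 members more positive and 9 more negative with a median of 0.14, so the smaller interactions below depend on the scaling. It moved the median knockout response of all genes by more than 0.1, to -0.013.

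**Figure D1:**
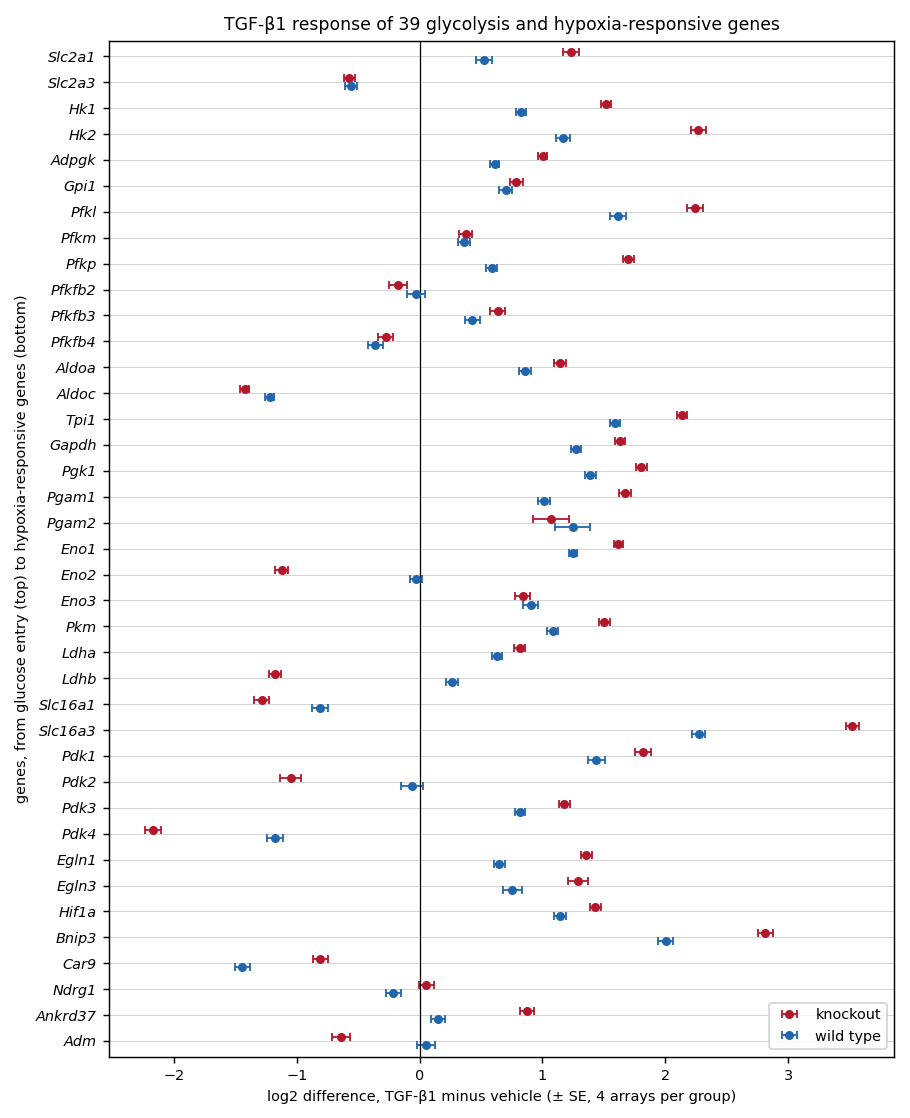
TGF-β1 response (TGF-β1 minus vehicle, log2, ± standard error, 4 arrays per group) of the 39 genes in pathway order, red for knockout and blue for wild type, with a vertical line at no difference. Most points lie right of the line with red further right than blue, from 3.52 for Slc16a3 in knockout to -2.17 for Pdk4 in knockout, while Ldhb, Eno2, Pdk2 and Adm lie well left of the line in knockout and near it or right of it in wild type.

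Glucose entry was split between its transporters. Slc2a1, which encodes the widely expressed facilitative glucose transporter GLUT1, read 14.67, 14.67, 14.55 and 14.7 in knockout cells with TGF-β1 and 13.28, 13.53, 13.4 and 13.45 in knockout cells with vehicle. Slc2a1 was at 13.7, 13.76, 13.75 and 13.75 in wild type cells with TGF-β1 and at 13.17, 13.04, 13.32 and 13.34 in wild type cells with vehicle. Every treated array stood above every vehicle array of its genotype, and the treated knockout arrays stood above all others. Slc2a1 rose by 1.23 ± 0.066 in knockout (adjusted p = 1.15e-10) and by 0.52 ± 0.066 in wild type (5.09e-06), and the interaction was 0.71 ± 0.094 (adjusted p = 1.32e-05). Slc2a3, which encodes the high-affinity transporter GLUT3, went the other way and read 8.46, 8.35, 8.47 and 8.56 in knockout cells with TGF-β1 and 9.08, 8.98, 8.99 and 9.08 in knockout cells with vehicle. Slc2a3 was at 8.65, 8.59, 8.67 and 8.67 in wild type cells with TGF-β1 and at 9.12, 9.15, 9.28 and 9.24 in wild type cells with vehicle. It fell by 0.57 ± 0.048 in knockout and by 0.56 ± 0.048 in wild type, and its interaction of -0.016 ± 0.068 did not pass (adjusted p = 0.857). With vehicle Slc2a3 was already lower in knockout, at -0.17 ± 0.048 (adjusted p = 0.0324), a call that was lost without knockout vehicle replicate 2 or 3 or wild type vehicle replicate 4 (each -0.15, adjusted p up to 0.0965) or wild type vehicle replicate 3 (-0.14, adjusted p = 0.0987).

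Of the enzymes that trap glucose as glucose 6-phosphate, Hk1, Hk2 and Adpgk rose in both genotypes. Hk1, the broadly expressed hexokinase, read 13.47, 13.55, 13.46 and 13.51 in knockout cells with TGF-β1 and 11.92, 11.91, 12.03 and 12.04 in knockout cells with vehicle. Hk1 was at 12.69, 12.69, 12.77 and 12.78 in wild type cells with TGF-β1 and at 11.9, 11.87, 11.91 and 11.96 in wild type cells with vehicle. Hk2, the inducible form that sits on mitochondria in many growing cells, read 12.95, 12.91, 12.75 and 12.87 in knockout cells with TGF-β1 and 10.62, 10.6, 10.57 and 10.6 in knockout cells with vehicle. Hk2 was at 11.83, 11.65, 11.63 and 11.78 in wild type cells with TGF-β1 and at 10.54, 10.47, 10.51 and 10.71 in wild type cells with vehicle. For both genes the order was the same, with treated knockout arrays highest, treated wild type arrays next and the 8 vehicle arrays lowest and mixed between genotypes. The rise of Hk2 was 2.27 ± 0.059 in knockout and 1.17 ± 0.059 in wild type, an interaction of 1.1 ± 0.084 (adjusted p = 4.02e-08). That of Hk1 was 1.52 ± 0.04 in knockout and 0.82 ± 0.04 in wild type, an interaction of 0.7 ± 0.057 (adjusted p = 9.55e-08). Neither differed past the threshold between vehicle groups, at 0.04 ± 0.059 for Hk2 and 0.066 ± 0.04 for Hk1. Adpgk, an ADP-dependent glucokinase, read 10.3, 10.29, 10.28 and 10.3 in knockout cells with TGF-β1 and 9.26, 9.3, 9.26 and 9.36 in knockout cells with vehicle. Adpgk was at 9.79, 9.86, 9.86 and 9.85 in wild type cells with TGF-β1 and at 9.14, 9.22, 9.28 and 9.27 in wild type cells with vehicle. It rose by 1.0 ± 0.036 in knockout and 0.61 ± 0.036 in wild type, with an interaction of 0.39 ± 0.051 (adjusted p = 1.35e-05). Gpi1, the isomerase that makes fructose 6-phosphate, ranged over 16.3 to 16.5 in knockout cells with TGF-β1, 15.54 to 15.67 in knockout cells with vehicle, 16.12 to 16.32 in wild type cells with TGF-β1 and 15.51 to 15.61 in wild type cells with vehicle. It rose by 0.79 ± 0.051 in knockout and 0.7 ± 0.051 in wild type, and the interaction of 0.087 ± 0.072 did not pass (adjusted p = 0.321). Under quantile normalization that interaction was -0.13 (adjusted p = 0.0459), so its direction depended on the scaling. The dimmest of its 3 kept probes gave 0.21 and was called in a fit of all kept probes (adjusted p = 0.0168). With TGF-β1 Gpi1 was higher in knockout by 0.15 ± 0.051 (adjusted p = 0.0196) with overlapping arrays, a call lost without knockout TGF-β1 replicate 4 (0.11, adjusted p = 0.0710) or wild type TGF-β1 replicate 1 (0.10, adjusted p = 0.0720) and not made for the second probe (0.13, adjusted p = 0.0552), and under quantile normalization it was -0.094.

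Phosphofructokinase, the committed step, has a muscle, a liver and a platelet form, and all of them rose in both genotypes. Pfkp, the platelet form, read 12.5, 12.61, 12.49 and 12.64 in knockout cells with TGF-β1 and 10.76, 10.86, 10.91 and 10.92 in knockout cells with vehicle. Pfkp was at 11.59, 11.52, 11.54 and 11.6 in wild type cells with TGF-β1 and at 10.97, 10.92, 11 and 11.02 in wild type cells with vehicle. The treated knockout arrays lay about 1 log2 unit above the treated wild type arrays, a difference of 1.0 ± 0.045 (adjusted p = 4.98e-11). Pfkp rose by 1.7 ± 0.045 in knockout and 0.59 ± 0.045 in wild type, an interaction of 1.11 ± 0.064 (adjusted p = 1.88e-09). Pfkl, the liver form, read 11.93, 11.95, 12.08 and 11.97 in knockout cells with TGF-β1 and 9.66, 9.77, 9.79 and 9.73 in knockout cells with vehicle. Pfkl was at 11.31, 11.43, 11.46 and 11.51 in wild type cells with TGF-β1 and at 9.72, 10.01, 9.83 and 9.69 in wild type cells with vehicle. It rose strongly in both genotypes, by 2.24 ± 0.065 in knockout and 1.61 ± 0.065 in wild type, with an interaction of 0.63 ± 0.092 (adjusted p = 3.31e-05). Pfkm, the muscle form, read 11.12, 11.2, 11.17 and 11.24 in knockout cells with TGF-β1 and 10.72, 10.84, 10.78 and 10.9 in knockout cells with vehicle. Pfkm was at 10.96, 11.12, 11.13 and 11.17 in wild type cells with TGF-β1 and at 10.7, 10.78, 10.74 and 10.69 in wild type cells with vehicle. Its rise was 0.37 ± 0.05 in knockout and 0.36 ± 0.05 in wild type, and the interaction of 0.011 ± 0.071 did not pass (adjusted p = 0.908). A second kept probe of Pfkp gave an interaction of 1.16.

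The Pfkfb enzymes set the level of fructose 2,6-bisphosphate, the main activator of phosphofructokinase, and moved by less than 1 log2 unit. Pfkfb3, the form with the highest ratio of kinase to phosphatase activity, read 12.53, 12.72, 12.64 and 12.52 in knockout cells with TGF-β1 and 11.89, 12.02, 11.93 and 12.02 in knockout cells with vehicle. Pfkfb3 was at 12.21, 12.22, 12.27 and 12.3 in wild type cells with TGF-β1 and at 11.78, 11.67, 11.95 and 11.89 in wild type cells with vehicle. It rose by 0.64 ± 0.061 in knockout and 0.43 ± 0.061 in wild type. Its interaction of 0.21 ± 0.086 was just past the threshold (adjusted p = 0.0491), held without knockout TGF-β1 replicate 1 or 4, knockout vehicle replicate 2 or 4, wild type TGF-β1 replicate 4 or wild type vehicle replicate 2, was lost without any of the other 10 arrays, down to 0.17 (adjusted p = 0.104) without wild type vehicle replicate 3, and was 0.025 under quantile normalization. In the fit of all kept probes, the dimmer Pfkfb3 probe passed neither in wild type (0.32, adjusted p = 0.173) nor in the interaction (0.35, adjusted p = 0.309). Pfkfb4 read 9.81, 9.87, 10.04 and 10.06 in knockout cells with TGF-β1 and 10.23, 10.14, 10.21 and 10.32 in knockout cells with vehicle. Pfkfb4 was at 10.11, 10.15, 10.2 and 10.21 in wild type cells with TGF-β1 and at 10.56, 10.42, 10.6 and 10.53 in wild type cells with vehicle. It fell with TGF-β1 by 0.28 ± 0.060 in knockout and 0.36 ± 0.060 in wild type, and it was lower in knockout both with TGF-β1, at -0.22 ± 0.06, and with vehicle, at -0.3 ± 0.06 (adjusted p = 0.00376). Pfkfb2, known as the heart form, read 9.43, 9.32, 9.23 and 9.25 in knockout cells with TGF-β1 and 9.55, 9.51, 9.42 and 9.45 in knockout cells with vehicle. Pfkfb2 was at 9.54, 9.37, 9.33 and 9.24 in wild type cells with TGF-β1 and at 9.38, 9.23, 9.44 and 9.54 in wild type cells with vehicle. The groups overlapped. Its knockout difference of -0.18 ± 0.071 passed (adjusted p = 0.0335). It did not pass without knockout TGF-β1 replicate 3 (-0.15, adjusted p = 0.0910) or 4 (-0.16), or without knockout vehicle replicate 1 (-0.15) or 2 (-0.17). Its interaction was -0.15 ± 0.1 (adjusted p = 0.231) and its difference between treated genotypes -0.065 ± 0.071 (adjusted p = 0.43), neither of them called. The dimmer Pfkfb2 probe gave other calls, with -0.97 in knockout, -0.23 in wild type (adjusted p = 0.0390), an interaction of -0.74 (adjusted p = 0.00024) and -0.57 between treated genotypes (adjusted p = 6.76e-05).

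At aldolase, which splits fructose 1,6-bisphosphate, the forms moved in opposite directions. Aldoa, the form of muscle and most tissues, read 17.51, 17.54, 17.61 and 17.66 in knockout cells with TGF-β1 and 16.42, 16.45, 16.42 and 16.47 in knockout cells with vehicle. Aldoa was at 17.18, 17.28, 17.35 and 17.33 in wild type cells with TGF-β1 and at 16.36, 16.36, 16.53 and 16.47 in wild type cells with vehicle. Aldoc, known as the brain form, read 11.65, 11.6, 11.57 and 11.68 in knockout cells with TGF-β1 and 13.07, 13.02, 13.02 and 13.09 in knockout cells with vehicle. Aldoc was at 12.33, 12.29, 12.36 and 12.36 in wild type cells with TGF-β1 and at 13.59, 13.47, 13.56 and 13.59 in wild type cells with vehicle. The 4 groups of Aldoc did not overlap anywhere, with treated knockout arrays lowest and wild type vehicle arrays highest. Aldoa rose by 1.14 ± 0.049 in knockout and 0.86 ± 0.049 in wild type, and its interaction of 0.28 ± 0.069 (adjusted p = 0.00268) was 0.11 and not called under quantile normalization. Aldoc fell by 1.42 ± 0.037 in knockout and by 1.22 ± 0.037 in wild type, an interaction of -0.2 ± 0.052 (adjusted p = 0.00368). The second kept Aldoc probe also fell, by 1.4 in knockout and 1.32 in wild type, but its interaction of -0.075 did not pass (adjusted p = 0.356). With vehicle Aldoc was lower in knockout, at -0.5 ± 0.037 (adjusted p = 7.31e-07).

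**Figure D2:**
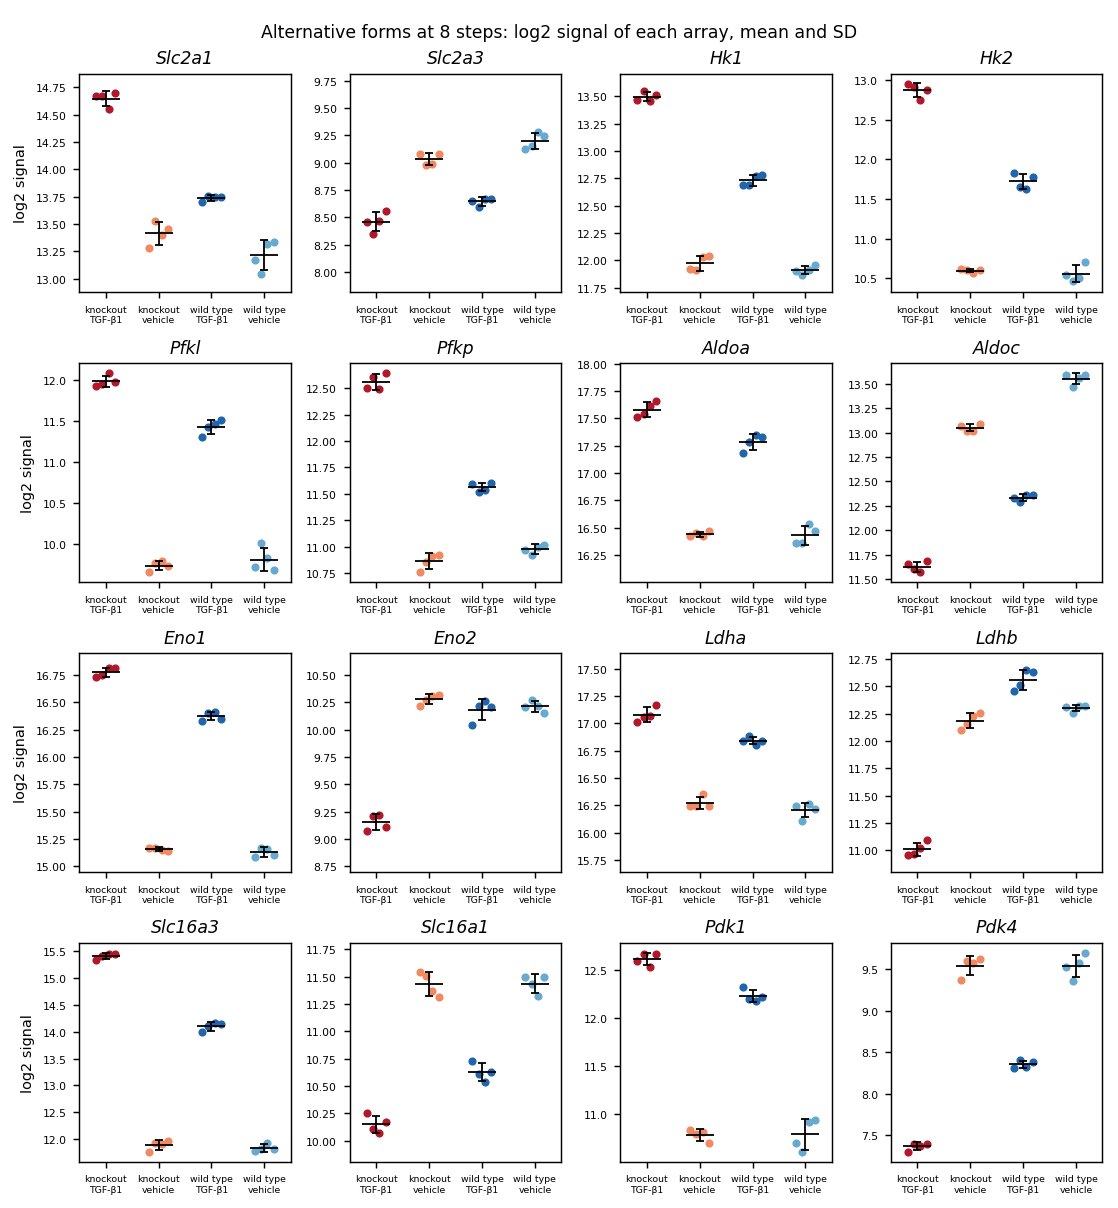
Log2 signal of each of the 16 arrays for 16 genes, points coloured by group from knockout with TGF-β1 at the left to wild type with vehicle at the right, with horizontal lines at group means and bars of 1 SD; axes differ between genes. In Slc2a1, Hk1, Hk2, Pfkl, Pfkp, Aldoa, Eno1, Ldha, Slc16a3 and Pdk1 the treated knockout points are highest, whereas in Slc2a3, Aldoc, Eno2, Ldhb, Slc16a1 and Pdk4 they are lowest.

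The middle of the pathway, from triose phosphates to phosphoglycerate, has a single main gene at each step here, and each rose further in knockout. Tpi1, triose phosphate isomerase, ranged over 16.01 to 16.17 in knockout cells with TGF-β1, 13.94 to 13.99 in knockout cells with vehicle, 15.42 to 15.5 in wild type cells with TGF-β1 and 13.81 to 13.92 in wild type cells with vehicle. Its rise was 2.14 ± 0.04 in knockout and 1.59 ± 0.04 in wild type, an interaction of 0.55 ± 0.057 (adjusted p = 1.16e-06). Gapdh, which makes the pathway's NADH and is often used as a reference gene in other assays, rose by 1.63 ± 0.042 in knockout and 1.27 ± 0.042 in wild type. Treated and vehicle arrays of Gapdh did not overlap in either genotype, at 17.2 to 17.35 in knockout cells with TGF-β1, 15.61 to 15.63 in knockout cells with vehicle, 16.77 to 16.94 in wild type cells with TGF-β1 and 15.57 to 15.63 in wild type cells with vehicle. Its interaction was 0.36 ± 0.059 (adjusted p = 1.08e-04), and over its 6 kept probes it ran from 0.36 for the brightest to 0.72 for the dimmest. Pgk1, phosphoglycerate kinase, rose by 1.81 ± 0.044 in knockout and 1.39 ± 0.044 in wild type, an interaction of 0.42 ± 0.062 (adjusted p = 3.87e-05), with arrays at 17.66 to 17.78 in knockout cells with TGF-β1, 15.83 to 15.92 in knockout cells with vehicle, 17.24 to 17.3 in wild type cells with TGF-β1 and 15.75 to 15.96 in wild type cells with vehicle.

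Both forms of phosphoglycerate mutase rose in both genotypes. Pgam1, the widely expressed form, read 16.41, 16.47, 16.48 and 16.48 in knockout cells with TGF-β1 and 14.7, 14.82, 14.78 and 14.85 in knockout cells with vehicle. Pgam1 was at 15.73, 15.76, 15.78 and 15.83 in wild type cells with TGF-β1 and at 14.68, 14.69, 14.88 and 14.8 in wild type cells with vehicle. Pgam2, the muscle form, was near the dim end of the scale and read 6.36, 6.4, 6.79 and 6.26 in knockout cells with TGF-β1 and 5.32, 5.08, 5.72 and 5.42 in knockout cells with vehicle. Pgam2 was at 6.57, 6.72, 6.6 and 6.77 in wild type cells with TGF-β1 and at 5.56, 5.32, 5.12 and 5.67 in wild type cells with vehicle. Treated arrays stood above vehicle arrays for both genes, and the treated genotypes overlapped for Pgam2 only. Pgam1 rose by 1.67 ± 0.046 in knockout and 1.01 ± 0.046 in wild type, an interaction of 0.66 ± 0.065 (adjusted p = 7.09e-07). Pgam2 rose by 1.07 ± 0.14 in knockout and 1.25 ± 0.14 in wild type, and the interaction of -0.18 ± 0.2 did not pass (adjusted p = 0.477). Of 5 skeletal muscle markers, Ckm, Myog and Mb were not well above background on any array. Tnnt3 was so on 16 arrays, with group means of 7.06 to 7.49. Myh1 was so on 13, with means of 6.65 and 6.48 in knockout and wild type cells with vehicle and 3.72 and 4.69 with TGF-β1.

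Enolase also split by form, with Eno2 lower in treated knockout cells. Eno1, the common form, read 16.73, 16.75, 16.81 and 16.81 in knockout cells with TGF-β1 and 15.17, 15.17, 15.15 and 15.14 in knockout cells with vehicle. Eno1 was at 16.33, 16.4, 16.41 and 16.35 in wild type cells with TGF-β1 and at 15.08, 15.17, 15.16 and 15.1 in wild type cells with vehicle. Eno2, known as the neuronal form, read 9.07, 9.21, 9.22 and 9.11 in knockout cells with TGF-β1 and 10.22, 10.27, 10.31 and 10.32 in knockout cells with vehicle. Eno2 was at 10.04, 10.22, 10.26 and 10.21 in wild type cells with TGF-β1 and at 10.21, 10.27, 10.22 and 10.15 in wild type cells with vehicle. The treated knockout arrays of Eno2 stood about 1 log2 unit below the other 12, which overlapped. Eno2 fell by 1.12 ± 0.051 in knockout (adjusted p = 1.64e-11) and differed by -0.03 ± 0.051 in wild type (adjusted p = 0.625), an interaction of -1.09 ± 0.072 (adjusted p = 8.92e-09). Eno1 rose by 1.62 ± 0.033 in knockout and 1.25 ± 0.033 in wild type, an interaction of 0.37 ± 0.047 (adjusted p = 7.80e-06), and its dimmer probe gave a knockout rise of 2.37. Eno3, the muscle form, read 12.42, 12.72, 12.38 and 12.6 in knockout cells with TGF-β1 and 11.65, 11.74, 11.67 and 11.71 in knockout cells with vehicle. Eno3 was at 12.35, 12.38, 12.42 and 12.44 in wild type cells with TGF-β1 and at 11.54, 11.41, 11.52 and 11.5 in wild type cells with vehicle. It rose by 0.84 ± 0.061 in knockout and 0.9 ± 0.061 in wild type, with an interaction of -0.067 ± 0.087 that did not pass (adjusted p = 0.533) but was -0.24 and called under quantile normalization. With vehicle Eno3 was higher in knockout by 0.2 ± 0.061 (adjusted p = 0.047), a call that held without knockout TGF-β1 replicate 1, 2 or 3 and was lost without any of the other 13 arrays, with 0.17 (adjusted p = 0.123) without wild type vehicle replicate 2, and with the replicate number as a block (adjusted p = 0.0548). Pkm, pyruvate kinase of most tissues other than liver and red cells, rose by 1.5 ± 0.044 in knockout and 1.08 ± 0.044 in wild type, an interaction of 0.42 ± 0.062 (adjusted p = 3.99e-05), with arrays at 16.26 to 16.46 in knockout cells with TGF-β1, 14.82 to 14.88 in knockout cells with vehicle, 15.88 to 15.98 in wild type cells with TGF-β1 and 14.77 to 14.9 in wild type cells with vehicle.

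At lactate dehydrogenase the A and B subunits parted. Ldha, whose subunit favours the making of lactate, read 17.01, 17.06, 17.07 and 17.17 in knockout cells with TGF-β1 and 16.24, 16.24, 16.35 and 16.24 in knockout cells with vehicle. Ldha was at 16.84, 16.88, 16.8 and 16.84 in wild type cells with TGF-β1 and at 16.24, 16.11, 16.26 and 16.22 in wild type cells with vehicle. Ldhb, whose subunit favours its use, read 10.96, 10.97, 11.02 and 11.09 in knockout cells with TGF-β1 and 12.1, 12.16, 12.23 and 12.26 in knockout cells with vehicle. Ldhb was at 12.46, 12.51, 12.65 and 12.63 in wild type cells with TGF-β1 and at 12.31, 12.26, 12.32 and 12.32 in wild type cells with vehicle. Treated knockout arrays of Ldhb lay below all others, while treated wild type arrays lay above all others. Ldhb fell by 1.18 ± 0.049 in knockout (adjusted p = 5.21e-12) and rose by 0.26 ± 0.049 in wild type (adjusted p = 2.20e-04), and its interaction of -1.44 ± 0.069 (adjusted p = 2.36e-10) was the most negative of the 39. With TGF-β1 it was lower in knockout, at -1.55 ± 0.049, a fold of 2.93. Ldha rose by 0.81 ± 0.044 in knockout and 0.63 ± 0.044 in wild type, an interaction of 0.18 ± 0.062 (adjusted p = 0.0192), which was 0.0082 under quantile normalization. The dimmer Ldha probe gave larger values, with a knockout rise of 2.21 and an interaction of 0.89, whereas the dimmer Ldhb probe gave -1.04 and -1.24. With vehicle that Ldhb probe was lower in knockout, at -0.25 (adjusted p = 0.00751), where the main one differed by -0.11 ± 0.049 and did not pass (adjusted p = 0.142).

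Lactate export showed the largest rise and one of the larger falls. Slc16a3, which encodes MCT4, the low-affinity exporter of glycolytic cells, read 15.34, 15.41, 15.45 and 15.45 in knockout cells with TGF-β1 and 11.76, 11.93, 11.91 and 11.96 in knockout cells with vehicle. Slc16a3 was at 13.99, 14.1, 14.17 and 14.15 in wild type cells with TGF-β1 and at 11.78, 11.81, 11.93 and 11.81 in wild type cells with vehicle. The 4 treated knockout arrays stood above the 4 treated wild type arrays, and these above all 8 vehicle arrays. Slc16a3 rose by 3.52 ± 0.053 in knockout, a fold of 11.5, and by 2.27 ± 0.053 in wild type, a fold of 4.83. Its interaction of 1.25 ± 0.075 (adjusted p = 2.78e-09) was the most positive of the 39, and its vehicle difference was 0.057 ± 0.053 (adjusted p = 0.535). Slc16a1, which encodes the higher-affinity carrier MCT1, fell in both genotypes and read 10.25, 10.11, 10.07 and 10.17 in knockout cells with TGF-β1 and 11.54, 11.51, 11.37 and 11.31 in knockout cells with vehicle. Slc16a1 was at 10.73, 10.61, 10.54 and 10.63 in wild type cells with TGF-β1 and at 11.5, 11.43, 11.32 and 11.5 in wild type cells with vehicle. Its fall was 1.28 ± 0.062 in knockout and 0.81 ± 0.062 in wild type, an interaction of -0.47 ± 0.088 (adjusted p = 3.07e-04).

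The pyruvate dehydrogenase kinases switch off the enzyme that commits pyruvate to oxidation inside the mitochondrion. In knockout they split into a pair that rose and a pair that fell. Pdk1, a HIF target, ranged over 12.53 to 12.66 in knockout cells with TGF-β1, 10.7 to 10.84 in knockout cells with vehicle, 12.18 to 12.32 in wild type cells with TGF-β1 and 10.61 to 10.94 in wild type cells with vehicle. It rose by 1.82 ± 0.066 in knockout and 1.44 ± 0.066 in wild type, and its interaction of 0.38 ± 0.094 (adjusted p = 0.00296) was 0.20 and not called under quantile normalization. Of its 4 kept probes, 1 gave an interaction of 0.17 (adjusted p = 0.321) and a difference of 0.21 between treated genotypes (adjusted p = 0.0700) that did not pass. Pdk3, another kinase of the family, ranged over 9.75 to 9.79 in knockout cells with TGF-β1, 8.53 to 8.7 in knockout cells with vehicle, 9.4 to 9.54 in wild type cells with TGF-β1 and 8.63 to 8.72 in wild type cells with vehicle. Its rise was 1.18 ± 0.042 in knockout and 0.81 ± 0.042 in wild type, an interaction of 0.36 ± 0.059 (adjusted p = 8.89e-05). Pdk4, the form known for its rise in fasting, read 7.3, 7.4, 7.37 and 7.4 in knockout cells with TGF-β1 and 9.37, 9.6, 9.57 and 9.62 in knockout cells with vehicle. Pdk4 was at 8.31, 8.4, 8.32 and 8.38 in wild type cells with TGF-β1 and at 9.52, 9.36, 9.57 and 9.69 in wild type cells with vehicle. Its 4 treated knockout arrays were lowest, the 4 treated wild type arrays intermediate and the vehicle arrays highest, with no overlap between these levels. Pdk4 fell by 2.17 ± 0.066 in knockout and by 1.18 ± 0.066 in wild type, an interaction of -0.99 ± 0.093 (adjusted p = 3.97e-07). Pdk2 fell by 1.05 ± 0.088 in knockout alone, with -0.06 ± 0.088 in wild type (adjusted p = 0.562) and an interaction of -0.99 ± 0.12 (adjusted p = 8.28e-06). It ranged over 7.49 to 7.76 in knockout cells with TGF-β1, 8.42 to 8.85 in knockout cells with vehicle, 8.38 to 8.71 in wild type cells with TGF-β1 and 8.6 to 8.66 in wild type cells with vehicle.

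The oxygen-sensing genes rose in both genotypes. Hif1a, which encodes the regulated HIF subunit, read 14.58, 14.6, 14.45 and 14.57 in knockout cells with TGF-β1 and 13.1, 13.17, 13.15 and 13.05 in knockout cells with vehicle. Hif1a was at 14.14, 14.09, 14.07 and 14.04 in wild type cells with TGF-β1 and at 12.95, 12.83, 12.96 and 13.03 in wild type cells with vehicle. It rose by 1.43 ± 0.047 in knockout and 1.14 ± 0.047 in wild type, and its interaction of 0.29 ± 0.067 (adjusted p = 0.00195) was 0.037 under quantile normalization. With vehicle it was higher in knockout by 0.17 ± 0.047 (adjusted p = 0.0251), a call lost without knockout vehicle replicate 2 (0.16, adjusted p = 0.0789) or 3 (0.16, adjusted p = 0.0706) or wild type vehicle replicate 2 (0.14, adjusted p = 0.0675). Egln1, the main HIF prolyl hydroxylase, ranged over 13.79 to 13.89 in knockout cells with TGF-β1, 12.44 to 12.52 in knockout cells with vehicle, 13.07 to 13.1 in wild type cells with TGF-β1 and 12.32 to 12.55 in wild type cells with vehicle. It rose by 1.36 ± 0.043 in knockout and 0.65 ± 0.043 in wild type, an interaction of 0.71 ± 0.061 (adjusted p = 1.46e-07). Egln3, a hydroxylase that is itself a HIF target, rose by 1.29 ± 0.08 in knockout and 0.75 ± 0.08 in wild type, an interaction of 0.53 ± 0.11 (adjusted p = 8.82e-04), with arrays at 10.25 to 10.38 in knockout cells with TGF-β1, 8.94 to 9.06 in knockout cells with vehicle, 9.64 to 9.81 in wild type cells with TGF-β1 and 8.73 to 9.19 in wild type cells with vehicle.

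The 5 further genes known to be raised by low oxygen did not move as 1 group, with 2 higher, 2 lower and 1 not called in knockout. Bnip3, a mitophagy receptor, read 15.6, 15.59, 15.68 and 15.71 in knockout cells with TGF-β1 and 12.8, 12.81, 12.85 and 12.87 in knockout cells with vehicle. Bnip3 was at 14.78, 14.72, 14.73 and 14.8 in wild type cells with TGF-β1 and at 12.67, 12.58, 12.88 and 12.89 in wild type cells with vehicle. It rose by 2.81 ± 0.06 in knockout, a fold of 7.03, and by 2.0 ± 0.06 in wild type, and treated knockout arrays stood above treated wild type arrays by 0.89 ± 0.06. The interaction was 0.81 ± 0.085 (adjusted p = 1.37e-06). Ankrd37, a small ankyrin repeat gene, read 9.41, 9.37, 9.47 and 9.44 in knockout cells with TGF-β1 and 8.63, 8.53, 8.54 and 8.5 in knockout cells with vehicle. Ankrd37 was at 8.52, 8.49, 8.55 and 8.48 in wild type cells with TGF-β1 and at 8.36, 8.15, 8.5 and 8.42 in wild type cells with vehicle. Only the treated knockout arrays stood apart. Ankrd37 rose by 0.87 ± 0.059 in knockout and by 0.15 ± 0.059 in wild type (adjusted p = 0.0367), an interaction of 0.72 ± 0.084 (adjusted p = 3.53e-06). The wild type call was lost without wild type TGF-β1 replicate 1 (0.14), 2 (0.16) or 3 (0.14) or wild type vehicle replicate 1 (0.15), and was 0.081 (adjusted p = 0.115) without wild type vehicle replicate 2. Its vehicle difference of 0.19 ± 0.059 (adjusted p = 0.0482) held without wild type vehicle replicate 3 or 4 and was lost without any of the other 14 arrays, with 0.16 (adjusted p = 0.109) without knockout vehicle replicate 1 and 0.12 (adjusted p = 0.0950) without wild type vehicle replicate 2.

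Car9, Ndrg1 and Adm differed from that pattern. Car9, a carbonic anhydrase of the cell surface and a much used hypoxia marker, read 8.51, 8.46, 8.38 and 8.37 in knockout cells with TGF-β1 and 9.44, 9.19, 9.17 and 9.17 in knockout cells with vehicle. Car9 was at 8.41, 8.29, 8.4 and 8.37 in wild type cells with TGF-β1 and at 9.75, 9.78, 9.92 and 9.8 in wild type cells with vehicle. The genotypes overlapped with TGF-β1, where the difference was 0.064 ± 0.062 (adjusted p = 0.364), and not with vehicle, where Car9 was lower in knockout at -0.57 ± 0.062 (adjusted p = 2.78e-05). Car9 fell by 0.81 ± 0.062 in knockout and by 1.44 ± 0.062 in wild type, so its positive interaction of 0.63 ± 0.087 (adjusted p = 1.96e-05) stands for a smaller fall. Knockout vehicle replicate 1, at 9.44, lay above its group, and without it the interaction was 0.70. Ndrg1, a stress-responsive gene, differed by 0.055 ± 0.061 in knockout (adjusted p = 0.408) and fell by 0.21 ± 0.061 in wild type, with overlapping arrays at 14.54 to 14.66 in knockout cells with TGF-β1, 14.49 to 14.57 in knockout cells with vehicle, 14.3 to 14.45 in wild type cells with TGF-β1 and 14.42 to 14.73 in wild type cells with vehicle. Its interaction of 0.27 ± 0.086 (adjusted p = 0.0146) was 0.012 under quantile normalization, where the knockout response was -0.46, and the difference of 0.2 ± 0.061 between genotypes with TGF-β1 (adjusted p = 0.00831) was -0.081. Adm, the vasodilator peptide adrenomedullin, ranged over 13.25 to 13.48 in knockout cells with TGF-β1, 13.81 to 14.13 in knockout cells with vehicle, 14.08 to 14.23 in wild type cells with TGF-β1 and 14.02 to 14.24 in wild type cells with vehicle. Treated knockout arrays stood below the other 12. Adm fell by 0.64 ± 0.071 in knockout and differed by 0.052 ± 0.071 in wild type (adjusted p = 0.538), where it was -0.20 under quantile normalization, and the interaction was -0.69 ± 0.1 (adjusted p = 3.29e-05).

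**Figure D3:**
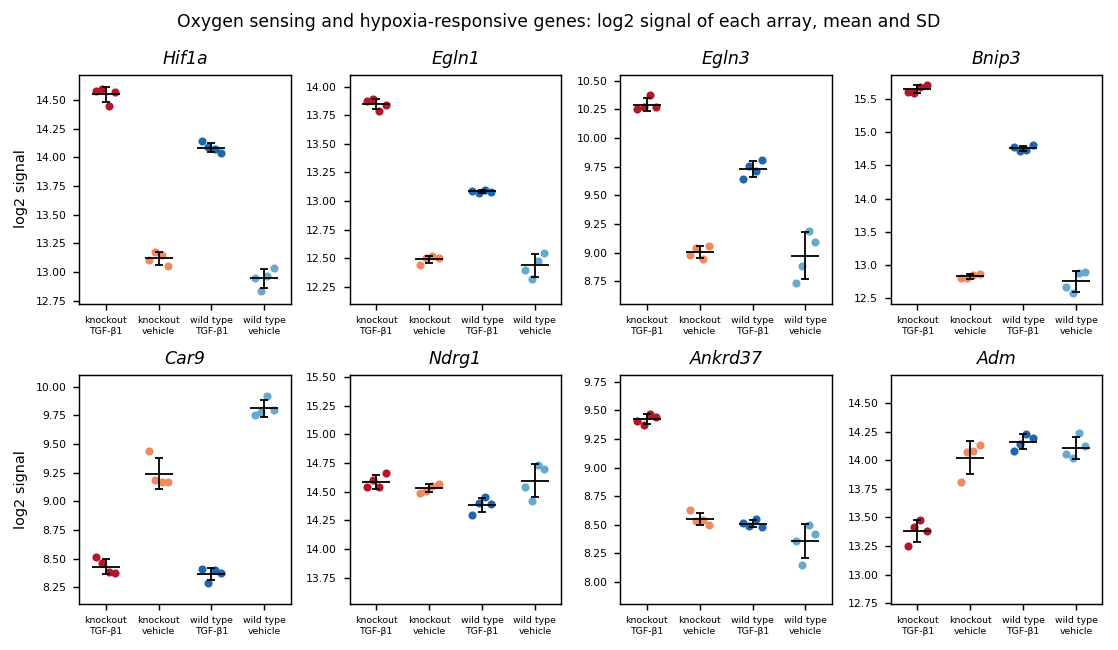
Log2 signal of each array for 8 oxygen-sensing and hypoxia-responsive genes, coloured by group as labelled under each axis, with lines at group means and bars of 1 SD; axes differ between genes. Bnip3, Hif1a, Egln1 and Egln3 step down from treated knockout to treated wild type to vehicle, whereas treated points of Car9 lie below vehicle points in both genotypes and treated knockout points of Adm lie below the other 12.

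Set directly against each other, the genotypes differed mainly after TGF-β1. With TGF-β1, 25 members were higher and 9 lower in knockout, where 39.7% of all genes tested were higher and 30.5% lower. All 4 knockout arrays lay above all 4 wild type arrays for 24 members and below for 9, against 37.2% and 27.5% of all genes. The largest positive differences were 1.31 ± 0.053 for Slc16a3, 1.14 ± 0.059 for Hk2 and 1.0 ± 0.045 for Pfkp, and the largest negative ones were -1.55 ± 0.049 for Ldhb, -1.03 ± 0.051 for Eno2 and -0.99 ± 0.066 for Pdk4. At least 2-fold differences were met by Slc16a3 and Hk2 upward and by Ldhb and Eno2 downward, where 3.32% and 7% of all genes met them. With vehicle, 3 members were higher and 4 lower in knockout, where 7.06% and 6.16% of all genes were. Those higher were Eno3, Ankrd37 and Hif1a and those lower were Car9, Aldoc, Pfkfb4 and Slc2a3. With 1 array left out, 0 to 3 members were higher and 3 or 4 lower, and 0 were higher without knockout vehicle replicate 2, knockout vehicle replicate 3 or wild type vehicle replicate 2. All 4 knockout arrays lay above all 4 wild type arrays for 3 members and below for 6, against 10.6% and 8.18% of all genes. At least 2-fold differences with vehicle were met by 0 members, 0.065% of all genes being that much higher and 0.247% that much lower. Other settings gave other splits of these few calls, 1 higher and 4 lower in the authors' deposited value table (which covers 29 of the 39 members, Ankrd37 but neither Eno3 nor Hif1a), 2 and 5 with normexp background correction, and 1 and 5 with the dimmest probe of each gene. Car9 at -0.57 ± 0.062 and Aldoc at -0.5 ± 0.037 were the largest.

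Both slides carried 2 arrays of each group, so each result was also read within a slide. Every member called in a comparison had the same sign on both slides. That was 38 of 38 for TGF-β1 in knockout, 35 of 35 in wild type, 34 of 34 between treated genotypes, 7 of 7 between vehicle groups and 32 of 32 for the interaction. The main difference averages the 2 slides and members were called on it, so this agreement is partly built in and is no separate support. Median member differences on the first and the second slide were 1.09 and 0.98 for TGF-β1 in knockout, 0.68 and 0.58 in wild type, and 0.36 and 0.30 between treated genotypes. The median interaction was 0.23 and 0.36.

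**Figure D4:**
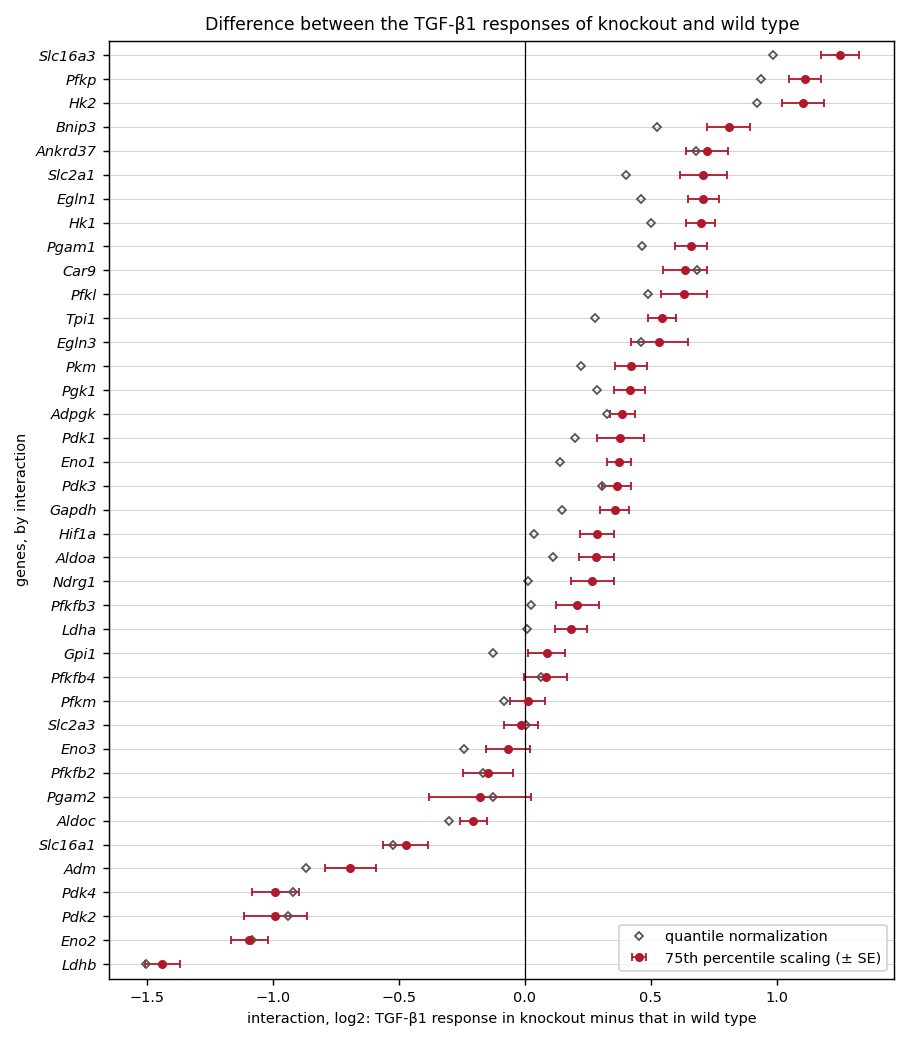
Interaction (TGF-β1 response in knockout minus that in wild type, log2) of the 39 genes in order of size, filled points with standard error for the scaling used here and open diamonds for quantile normalization. The diamonds lie left of most positive points, while Slc16a3, Pfkp and Hk2 at one end and Ldhb, Eno2, Pdk2 and Pdk4 at the other keep their sign under both scalings.

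Taken by place in the pathway, the 20 enzyme genes from hexokinase to lactate dehydrogenase held 17 that rose and 3 that fell in knockout, and 18 and 1 in wild type, where 46.6% and 35.9% of all genes tested rose and fell in knockout and 41.3% and 27.3% in wild type. The 3 that fell in knockout were Aldoc, Eno2 and Ldhb, each a form beside a relative that rose. Of these 20, 13 had a positive and 3 a negative interaction past the threshold, against 31.9% and 26.5% of all genes. The 4 transporters and the 4 pyruvate dehydrogenase kinases were each divided evenly, with 2 rising and 2 falling in knockout.

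Genes around the pathway gave a context for the members, from lists drawn up by function. Of the 28 measured of 30 other hypoxia-responsive genes, 25 rose and 2 fell in knockout and 21 rose and 5 fell in wild type, with medians of 1.07 and 0.68, and 21 had a positive and 2 a negative interaction. Of all genes tested, 46.6% rose and 35.9% fell in knockout, 41.3% rose and 27.3% fell in wild type, and 31.9% had a positive and 26.5% a negative interaction, and the smaller lists that follow are to be read against the same shares. Those with the smallest interaction p were Fam162a, a mitochondrial protein induced by hypoxia, at 0.92 ± 0.055 (adjusted p = 2.74e-09), the transferrin receptor Tfrc at 1.52 ± 0.097 (adjusted p = 5.66e-09) and the repressor Bhlhe40 at 0.95 ± 0.06 (adjusted p = 5.66e-09). Of 7 measured HIF regulators, 2 rose and 2 fell in each genotype. Cited2, which competes with HIF for its coactivator, had an interaction of 0.81 ± 0.082, against -0.84 ± 0.12 for the HIF partner Arnt2 and -0.52 ± 0.085 for Epas1, which encodes HIF-2α.

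Side branches of glucose use were mixed. Of 12 measured glycogen genes, 9 rose and 2 fell in knockout and 9 rose and 1 fell in wild type. Glycogen synthase Gys1 had an interaction of 0.93 ± 0.067 and the phosphoglucomutase Pgm1 0.6 ± 0.071, while the glycogen-targeting subunit Ppp1r3c had -1.25 ± 0.16 (adjusted p = 1.18e-05). Of 9 pentose phosphate genes, 6 rose and 3 fell in knockout and 4 rose and 4 fell in wild type. Transaldolase Taldo1 had an interaction of 0.54 ± 0.049 and Pgd of 0.29 ± 0.054, against -0.62 ± 0.048 for H6pd, the hexose 6-phosphate dehydrogenase of the endoplasmic reticulum.

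Of 10 genes for the entry of pyruvate into mitochondrial metabolism, 5 rose and 3 fell in knockout and 3 rose and 4 fell in wild type, in knockout close to the 46.6% and 35.9% of all genes that rose and fell. The phosphatase Pdp1, which undoes the work of the Pdk kinases, had an interaction of -0.95 ± 0.067 (adjusted p = 1.78e-08), pyruvate carboxylase Pcx -0.43 ± 0.07 and Dlat, a subunit of pyruvate dehydrogenase, 0.37 ± 0.08. Of 13 measured of 24 other enzyme forms and gluconeogenic genes, 6 rose and 4 fell in knockout and 7 rose and 3 fell in wild type. Bpgm, which makes 2,3-bisphosphoglycerate, had an interaction of 0.9 ± 0.058, the lactate dehydrogenase D gene Ldhd -1.5 ± 0.16 and Hk3, a hexokinase of leukocytes, -0.9 ± 0.074 (adjusted p = 1.04e-07). Hk3 fell by 2.09 ± 0.052 in knockout and by 1.19 ± 0.052 in wild type. The macrophage and leukocyte markers above, of which 9 of 10 fell with TGF-β1 in each genotype, moved the same way as Hk3, and their part in its fall was not tested.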

How the data were processed

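Per the file headers, each array file holds spot intensity on a linear scale from Agilent Feature Extraction 11.0.1.1 (also in the submitters' processing notes), after that program's own background subtraction and detrending. A second deposited file is a log2 value table of 9933 probes, whose choice of probes and normalization are not given in the sources used here. It was set against the log2 intensities (r of at least 0.999), so it is log2, not centred per probe, with higher values brighter. It served as an alternative. Of the probes in this table, 82.7% differed at least 2-fold between 2 group means. It is thus rich in probes that differ between groups, and its shares of genes called are not comparable with those of the main fit. Its column medians were 6.391, 6.38, 6.388 and 6.381 on knockout TGF-β1 arrays, 6.586, 6.593, 6.567 and 6.58 on knockout vehicle arrays, 6.473, 6.466, 6.493 and 6.469 on wild type TGF-β1 arrays, and 6.595, 6.598, 6.615 and 6.609 on wild type vehicle arrays.

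Of 56605 probes, 32994 matched 1 of 22911 gene names by unversioned accession in RefSeq's GRCm38.p6 table, used for names. Log2 intensities were shifted per array to a common 75th percentile. The 27 probes with outlier marks were left out, and 33888 probes were kept that lay well above background throughout at least 1 group. The brightest kept probe stood for each of 15394 genes, since levels were not compared between probes; 14 members had several. limma 3.58.1 in R 4.3.3 fitted 1 coefficient per group over 16 arrays, with 5 comparisons, 2-sided tests, adjusted p under 0.05, and was tested on simulated data. The number of arrays limits the precision.

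Members, lists and tests were chosen with earlier results of these data known, so a pattern among them is not independent support. Members could all be named; array values are given for the 3 largest positive and negative differences per comparison and for enzyme forms sharing a step, other members by ranges, and up to 3 genes per list by interaction p. Same-numbered arrays of different groups had correlations of deviations from -0.034 to 0.22. For 13 of 16 arrays the best match in another group had their own number. The labels do not tie the numbers to experiments, so the numbers were not taken to pair samples, and the replicate number as a block was an alternative.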

Additional observations from a re-analysis of the deposited data

Results flagged for a closer look

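A sample far from the rest of its group of 4 was found in 2 of 156 groups, where chance gives about 1 in 20. Ldha in knockout cells with vehicle stood at 16.35 in replicate 3, the nearest array being at 16.24, and Car9 in the same group stood at 9.44 in replicate 1, the nearest being at 9.19.

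The TGF-β1 response differed between genotypes by the interaction test for 32 of the 39 members. It was more positive in knockout for Slc2a1 (0.71), Hk1 (0.70), Hk2 (1.1), Adpgk (0.39), Pfkl (0.63), Pfkp (1.11), Pfkfb3 (0.21), Aldoa (0.28), Tpi1 (0.55), Gapdh (0.36), Pgk1 (0.42), Pgam1 (0.66), Eno1 (0.37), Pkm (0.42), Ldha (0.18) and Slc16a3 (1.25). The same held for Pdk1 (0.38), Pdk3 (0.36), Egln1 (0.71), Egln3 (0.53), Hif1a (0.29), Bnip3 (0.81), Car9 (0.63), Ndrg1 (0.27) and Ankrd37 (0.72). It was more negative for Aldoc (-0.20), Eno2 (-1.09), Ldhb (-1.44), Slc16a1 (-0.47), Pdk2 (-0.99), Pdk4 (-0.99) and Adm (-0.69). A second kept probe of Aldoc (-0.075, adjusted p = 0.356), of Pfkfb3 (0.35, adjusted p = 0.309) and of Pdk1 (0.17, adjusted p = 0.321) did not pass. Adjusted p ran from 2.36e-10 for Ldhb to 0.0491 for Pfkfb3 by limma.

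Among probes of members that the filter left out, 4 had an array well above background and brighter than every wild type vehicle array. An Adpgk probe reached 4.58 in knockout TGF-β1 replicate 1 (highest wild type vehicle array 4.11), and an Hk1 probe reached 4.15 in knockout vehicle replicate 1 (3.31). A Pfkfb2 probe reached 4.66 in knockout vehicle replicate 4 (4.36). A Pfkfb4 probe reached 7.58 in knockout TGF-β1 replicate 1 alone, with 2.97 as the next highest of the 16 arrays.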

How the results depend on the processing

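Of 2095 values of single genes under other settings, 2018 kept their direction and side of the threshold, 51 lost their call, 20 gained one and 6 reversed; of 3120 values with 1 array left out, 3061 kept both, 55 lost their call, 4 gained one and 0 reversed. Quantile normalization reversed Adm in wild type (-0.20, likewise -0.20 in the authors' value table), Gpi1 between treated genotypes (-0.094) and in the interaction (-0.13), and Ndrg1 in knockout (-0.46) and between treated genotypes (-0.081). It also ended the interaction calls of Aldoa, Hif1a, Ldha, Ndrg1, Pdk1 and Pfkfb3, and left 19 members more positive and 9 more negative. The median of members was 0.86 in knockout, 0.50 in wild type, 0.15 between treated genotypes and 0.14 in the interaction with quantile normalization. In knockout it was 0.90 with normexp, 1.13 in the authors' value table, 1.14 with the mean of kept probes, 1.14 with the dimmest kept probe (an alternative chosen after seeing the data) and 0.98 within slide 2. Between treated genotypes it was 0.43 with the mean and 0.43 with the dimmest probe, in wild type 0.75 with the dimmest probe, and in the interaction 0.23 within slide 1. Over all genes in the authors' value table, the median in knockout was -0.73, against 0.10 in the main fit. Between vehicle groups the median of members, 0.031, was -0.0030 in the authors' value table and -0.0013 within slide 2. The 3 members higher between vehicle groups became 1 in the authors' value table (29 of the 39 members, Eno3 and Hif1a not among them), 1 with no filter, 1 with the dimmest probe and 0 within either slide, and the 4 lower became 1 within slide 1. Splits of higher and lower calls there were 1 and 3 with no filter, 2 and 5 with normexp, 1 and 5 with the dimmest probe and 1 and 4 in the authors' value table. The authors' value table, which tests 4847 genes, called 4646 in knockout, 4263 in wild type, 4152 between treated genotypes, 1195 between vehicle groups and 3800 in the interaction; with fewer arrays, slide 1 called 197 and slide 2 called 1048 between vehicle groups, and slide 1 called 5620 in the interaction. Other causes were not tested. With 1 array left out, members higher between vehicle groups ran from 0 to 3, the median in knockout from 1.00 to 1.13, and genes called between vehicle groups from 1485 to 2075.

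With the replicate number as a block, 24 members were more positive and 7 more negative in the interaction, and 4 calls changed: Eno3 between vehicle groups (adjusted p = 0.0548) and Pfkfb3 in the interaction (0.0507) were lost, and Ldhb between vehicle groups (0.0442) and Pfkm between treated genotypes (0.0445) were gained. Of 16 arrays, 13 deviated most like an array of another group with their own number, so most arrays did match by number. In each group numbers 1 and 2 lay on slide 1 and numbers 3 and 4 on slide 2, and the part of the slide in these matches was not tested. The labels do not tie the numbers to experiments, so this pairing is a hint from the data and not the design. The dimmest probes lay nearest to background, which limits Pgam2 (SE 0.14) most.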

Other observations

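For 14 members with several kept probes, the probes of a gene did not differ in the sign of the knockout response in any (0 of 14), but the brightest probe gave a smaller absolute response than the dimmest in 10 of 14. Ldha gave 0.81 with its brightest and 2.21 with its dimmest probe, Eno1 1.62 and 2.37, and Gapdh 1.63 and 2.18. Pdk1 gave 1.82 with its brightest probe and 1.91 with its dimmest, but 0.40 for a probe between them in brightness. Whether bright probes understate differences was not tested.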
